A study of Mus musculus with 10 samples.

Results

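The 10 genes described here (Fos, Fosb, Jun, Junb, Egr1, Egr3, Ier2, Atf3, Dusp1 and Klf2) are immediate early response genes, taken by symbol from the 33641 gene symbols in the files, 23615 of which had at least 1 count in some library. The rule used their symbols and no measured value. The question was whether their levels differed among the 6 libraries analysed, as a sign of signaling in the tissue or of a response to its dissection, with the library Hand2 cKO 2 considered apart. Of these genes, 9 passed the filter on low counts and were tested. Egr3 did not pass.

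Immediate early genes are transcribed within minutes of a stimulus without new protein synthesis, because the factors that switch them on, such as SRF with its ternary complex partners and CREB, are already bound and need only be phosphorylated by MAP kinases and other kinases. Most of their transcripts are unstable, so the mRNAs decay soon after the stimulus ends. Growth factors, serum, mechanical force, heat and tissue handling all induce them, and for this reason they are often read as a mark of dissociation or dissection.

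Polyadenylated RNA had been sequenced in bulk from mandibular prominences (MNPs), the swellings of the embryonic face that form the lower jaw, dissected at embryonic day 10.5 and frozen on dry ice. All embryos were on a CD1 background and had 1 of 3 genotypes: wild-type (WT), Hand2 f/f with Wnt1-Cre (Hand2 cKO), or Gli2 f/f and Gli3 f/f with Wnt1-Cre (Gli2/3 cKO). Of the 10 samples labelled, 6 were analysed, with the replicate numbers 3 and 4 for WT, 1 to 3 for Hand2 cKO and 3 for Gli2/3 cKO, so WT had n = 2, Hand2 cKO n = 3 and Gli2/3 cKO a lone library with no replicate. Wnt1-Cre acts in the neural crest lineage, which makes most of the arch mesenchyme, and leaves epithelium, vessels, blood and the mesodermal core untouched. Whether a library came from 1 embryo or a pool, and how long passed between dissection and freezing, is not stated in the labels or the methods. The study's methods describe adrenergic agonists in the drinking water of dams carrying Hand2 mutants for later stages, and do not say whether the embryos used here were exposed. P-values measure the spread between these libraries, which may be partly technical.

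The libraries held 21420197 (WT 4) to 53326697 (Hand2 cKO 1) estimated counts. Hand2 was at 13.4 to 25.5 CPM (counts per 1000000 of the scaled library size) in Hand2 cKO against 175 and 209 CPM in WT, and Gli3 and Gli2 had their lowest values, 80.2 and 58.3 CPM, in Gli2/3 cKO 3. A pair of libraries stood apart from the rest of their groups. In Hand2 cKO 2, short transcripts were over-represented: relative to the mean of all libraries, log2 CPM changed by -0.230 per doubling of transcript length, against -0.0647 in WT 4 and 0.0424 to 0.108 in the others. In WT 4, haemoglobin genes took 1.26% of the counts, against 0.264% in WT 3 and 0.344% to 0.712% in the mutants.

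To show what the regulatory sequence of these genes looks like, the bases just upstream of the RefSeq start sites (build GRCm38.p6) of 3 genes are printed below, 5′ to 3′ on the strand of the gene. Promoters were at hand for 7 of the 10 genes (Atf3, Dusp1, Fos, Fosb, Jun, Junb and Klf2). Fos and Jun encode the partners of the AP-1 dimer, Jun was lower in the Gli2/3 cKO library than in the other libraries, and Dusp1 carried the full site TGACGTCA bound by CREB. Capitals mark matches to TGACNTCA (a CREB or ATF type site), to its shorter form TGACG, to the TATA box TATAAA and to the CCAAT box. The windows are chr12:85473790-85473889 on the plus strand for Fos, chr4:95052223-95052322 on the minus strand for Jun and chr17:26508473-26508672 on the minus strand for Dusp1.
Fos: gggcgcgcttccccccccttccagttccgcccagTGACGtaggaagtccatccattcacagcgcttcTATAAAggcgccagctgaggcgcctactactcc
Jun: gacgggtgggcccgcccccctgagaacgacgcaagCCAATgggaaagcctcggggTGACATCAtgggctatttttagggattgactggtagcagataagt
Dusp1: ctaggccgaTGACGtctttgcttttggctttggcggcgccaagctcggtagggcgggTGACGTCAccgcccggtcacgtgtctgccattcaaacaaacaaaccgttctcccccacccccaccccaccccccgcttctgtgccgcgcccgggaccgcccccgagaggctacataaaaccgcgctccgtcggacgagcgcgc

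Motifs were searched on both strands of the 250 bases before each start. TGACNTCA was found in Dusp1 (143 to 136 bases before the start) and Jun (45 to 38 bases before it), and in 7.49% of all 32851 windows. TGACG was found in 6 of the 7 windows (Atf3, Dusp1, Fos, Fosb, Junb and Klf2) and in 17.8% of all windows, and at Dusp1 it overlaps TGACNTCA. TATAAA lay 33 to 28 bases before the start of Fos only, against 12.4% of all windows, and CCAAT lay in Jun and Junb, against 33.8%. The AP-1 site TGANTCA (6.75% of all windows) and the CArG box bound by SRF (1.47%) had no match in the 7 windows. Sequence farther upstream and the promoters of Egr1, Egr3 and Ier2 were not searched, so these genes may carry such sites elsewhere. GCGNGGGCG, the site of the Egr proteins, matched in Fosb and Klf2 (4.70% of all windows). Of motifs for the factors deleted here, only the canonical Gli site GACCACCC and a single form of the E-box, CAGATG, were searched. GACCACCC matched in none (0.703% of all windows) and CAGATG in Atf3 alone (14.4%). The study reports a divergent Gli motif of lower affinity in most regions bound by both Gli3 and Hand2. That motif and other forms of the E-box were not searched, so their presence in these windows was not tested. A match describes the letters of the window and is not evidence of binding.

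The 10 genes covered a wide range of levels. On a scale that corrects for transcript length (TPM, transcripts per 1000000), Ier2 had a median of 102 TPM over the 6 libraries, above 89.6% of all tested genes, with a range of 80.2 to 136 TPM. Jun followed at a median of 24.2 TPM (15.5 to 26.2), Dusp1 at 12.8 (10.3 to 14.0) and Klf2 at 3.96 (3.52 to 4.76). Below them came Junb at 3.44 TPM (3.39 to 4.61), Atf3 at 1.55 (1.35 to 2.23), Fos at 1.08 (0.782 to 1.48) and Egr1 at 0.702 (0.581 to 1.26). Fosb had a median of 0.0782 TPM and Egr3 of 0.0496 TPM, above 2.75% and 1.59% of the tested genes. The ranges of Ier2, Jun, Dusp1 and Klf2 did not overlap in this order. Klf2 and Junb, Atf3 and Fos, Fos and Egr1, and Fosb and Egr3 were neighbors whose ranges overlapped.

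The genes of lowest median TPM here, Fos, Egr1, Fosb and Egr3, thus had low levels in every library. Fos, with a median TPM above that of 24.4% of tested genes, had 19 to 54 estimated counts per library. Ier2, Jun and Dusp1, which are stimulus-induced too, were not low, with medians above 89.6%, 62.9% and 51.9% of tested genes. No gene of the 10 was called in any of the 3 comparisons between genotypes (edgeR quasi-likelihood test, with a call needing a fold above 1.5 and an adjusted p, by Benjamini-Hochberg over all 17477 genes tested, below 0.05). The same count of 0 was obtained with DESeq2. Of 23652 genes with a p in DESeq2, 181 were called in Hand2 cKO against WT and 123 in Gli2/3 cKO against WT. In Gli2/3 cKO against Hand2 cKO it called 136. Few genes of any kind were called by edgeR: 0.0114% of all genes tested in Hand2 cKO against WT, 0.0114% in Gli2/3 cKO against WT and 0.0343% in Gli2/3 cKO against Hand2 cKO. A count of 0 among 9 genes was therefore near the background. Values past an unadjusted p below 0.05 were found for Ier2 (higher in Hand2 cKO than in WT) and Jun (lower in the Gli2/3 cKO library than in either other group), in both tools.

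**Figure D1:**
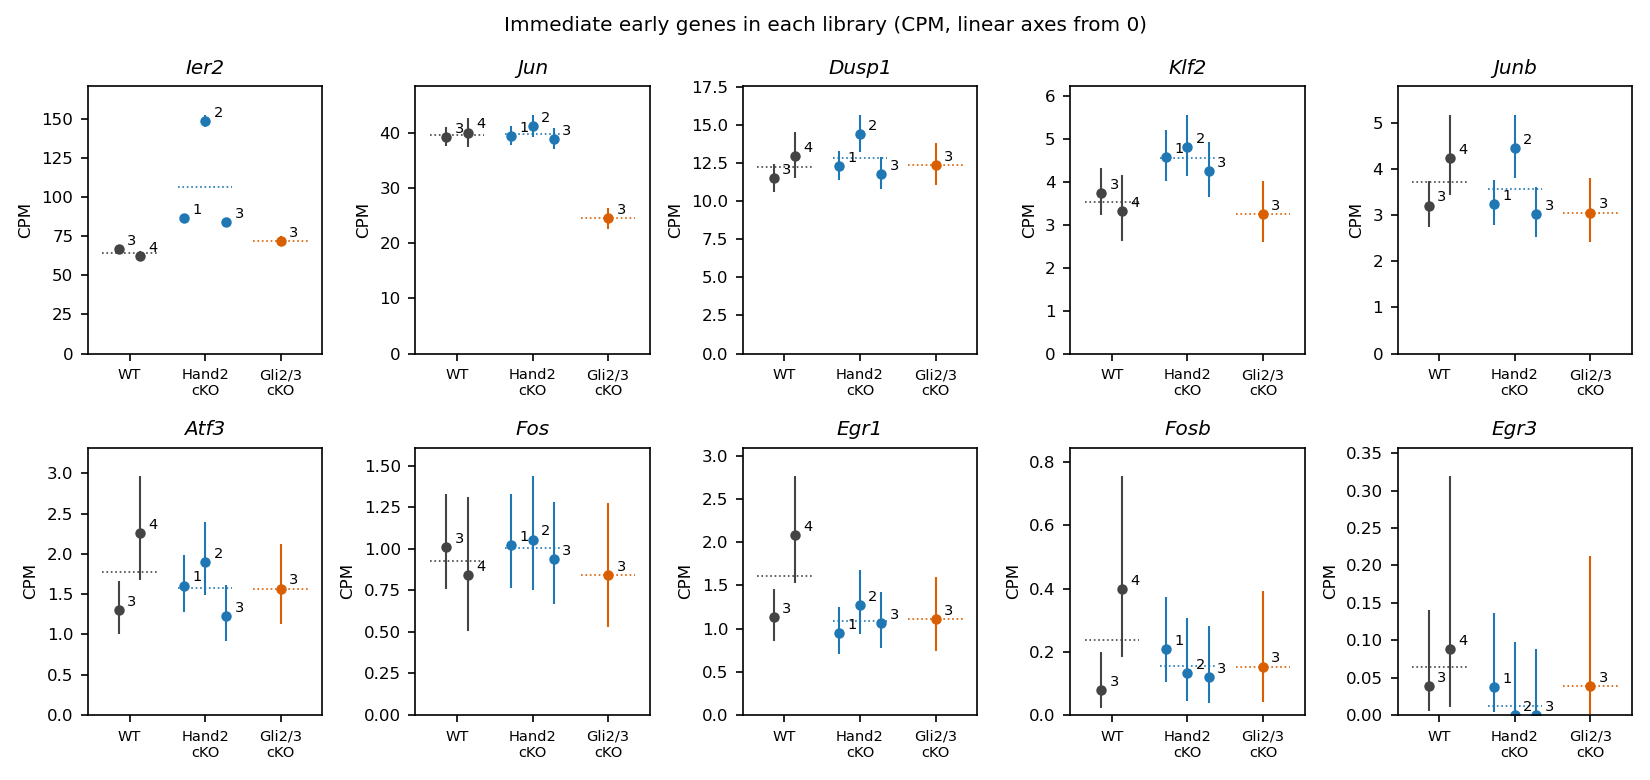
CPM of each of the 10 genes in every library, on linear axes from 0 and numbered by replicate, ordered by median TPM. Vertical bars are exact Poisson 95% intervals of the count, which cover counting error only, and dotted lines are the group means (WT n = 2, Hand2 cKO n = 3, Gli2/3 cKO a lone library). Ier2 is highest in Hand2 cKO 2 at 149 CPM and Jun is lowest in Gli2/3 cKO 3 at 24.5 CPM.

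The Fos family supplies the partners that dimerize with Jun proteins to form AP-1. Fos (chromosome 12, 85473890 to 85477273, plus strand, mm10) stood at 1.01 and 0.840 CPM in WT 3 and WT 4, at 1.02, 1.06 and 0.939 CPM in Hand2 cKO 1 to 3, and at 0.842 CPM in Gli2/3 cKO 3. The highest value was 1.26 times the lowest, the groups overlapped, and each library's counting interval held the values of all the others. Hand2 cKO had 1.01 ± 0.0601 CPM (SD, n = 3) against 0.927 ± 0.122 CPM in WT (SD, n = 2). The log2 fold change was 0.11 ± 0.31 (SE; 95% interval from -0.65 to 0.87; edgeR, adjusted p = 0.916) for Hand2 cKO and -0.15 ± 0.43 (from -1.20 to 0.91; adjusted p = 1) for Gli2/3 cKO against WT. Folds of more than 2 in either direction lay outside the interval for Hand2 cKO but not for a decrease in Gli2/3 cKO. The main coding transcript of Fos, with 4 exons, held 81.3% of its estimated counts.

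Fosb (chromosome 7, 19302696 to 19310051, minus strand), a Fos relative with the same leucine zipper, was close to the limit of detection. It had 4 and 9 counts in WT 3 and WT 4 (0.0779 and 0.398 CPM), 11, 5 and 5 counts in Hand2 cKO 1 to 3 (0.208, 0.132 and 0.120 CPM) and 4 counts in Gli2/3 cKO 3 (0.153 CPM). The lowest and the highest value were both in WT. The interval of its log2 fold change ran from -2.61 to 1.66 in Hand2 cKO and from -3.56 to 2.57 in Gli2/3 cKO, so a difference was not detectable at this depth. The few counts were assigned to different transcripts in different libraries.

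Jun (chromosome 4, 95049034 to 95052222, minus strand) encodes the AP-1 subunit that can also bind DNA as a homodimer, and its gene has a single exon. Its CPM varied little across WT and Hand2 cKO: WT 3 and WT 4 had 39.3 and 40.1 CPM, and Hand2 cKO 1 to 3 had 39.5, 41.2 and 38.9 CPM. The Gli2/3 cKO library had 24.5 CPM (640 counts, Poisson 95% interval from 22.6 to 26.5 CPM), or 61.7% of the WT mean of 39.7 ± 0.555 CPM (SD, n = 2). That library lay below the other 5, none of whose counting intervals reached it. Of all genes tested, 16.8% were likewise lowest in the Gli2/3 cKO library in CPM, and of the 9 tested here 2 were (Jun and Klf2).

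The log2 fold change of Jun was 0.0077 ± 0.13 in Hand2 cKO (95% interval from -0.30 to 0.32; edgeR, adjusted p = 0.985). In Gli2/3 cKO it was -0.70 ± 0.18 against WT (from -1.13 to -0.26) and -0.70 ± 0.17 against Hand2 cKO (from -1.12 to -0.29). Neither passed the threshold (adjusted p = 0.779, with 0.125 to 1 under the other settings, against WT, and 0.626, with 0.0942 to 0.961 under the other settings, against Hand2 cKO). An unadjusted p below 0.05 with a lower level in Gli2/3 cKO was reached by 2.96% of all genes against WT and by 2.63% against Hand2 cKO, and by 1 of the 9 genes, Jun, in each case. Without Hand2 cKO 2 the value against WT was -0.71 (adjusted p = 0.125). With no replicate of the Gli2/3 cKO library, genotype and library cannot be told apart. In bulk tissue, fewer cells of a type and less RNA per cell cannot be told apart either.

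Junb (chromosome 8, 84974484 to 84978718, minus strand), a Jun relative that weakens or replaces Jun in AP-1 dimers, had 3.21 and 4.24 CPM in WT, 3.25, 4.46 and 3.03 CPM in the Hand2 cKO libraries and 3.06 CPM in the Gli2/3 cKO library. WT 4 and Hand2 cKO 2 were the high libraries, and the groups overlapped. Its fitted log2 fold change was -0.054 ± 0.28 in Hand2 cKO (95% interval from -0.74 to 0.63; edgeR, adjusted p = 0.954) and -0.28 ± 0.39 in Gli2/3 cKO (from -1.22 to 0.66; adjusted p = 1). Without WT 4 the value for Gli2/3 cKO was -0.071, and without WT 3 it was -0.47. In TPM the level of Junb in Hand2 cKO 2 was 1.00 times the mean of the other Hand2 cKO libraries, against 1.42 times in CPM. With the trend on transcript length removed, Hand2 cKO 2 still had more, at 4.15 CPM against 3.30 and 3.12 CPM in Hand2 cKO 1 and 3. WT 4 had 4.16 CPM on that scale.

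Atf3 (chromosome 1, 191170296 to 191218039, minus strand), a stress-induced member of the ATF/CREB family that also pairs with Jun proteins, had 1.31 and 2.26 CPM in WT, 1.61, 1.90 and 1.23 CPM in the Hand2 cKO libraries and 1.57 CPM in the Gli2/3 cKO library. The WT libraries spanned all but the value of Hand2 cKO 3. Its log2 fold change was -0.16 ± 0.37 in Hand2 cKO (95% interval from -1.05 to 0.73; edgeR, adjusted p = 0.894) and -0.17 ± 0.50 in Gli2/3 cKO (from -1.39 to 1.06; adjusted p = 1). In Hand2 cKO 2, 24.9 of its 72 estimated counts were assigned to a shorter coding transcript that had less than 1 count in any other library.

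Egr1 and Egr3 are zinc-finger factors induced by growth factors through MAP kinase and SRF. Egr1 (chromosome 18, 34859823 to 34864984, plus strand) had 1.13 and 2.08 CPM in WT, 0.946, 1.27 and 1.06 CPM in the Hand2 cKO libraries and 1.11 CPM in the Gli2/3 cKO library. WT 4 was the high library, and the other 5 lay between 0.946 and 1.27 CPM. The log2 fold change was -0.54 ± 0.37 in Hand2 cKO (95% interval from -1.45 to 0.37; edgeR, adjusted p = 0.723) and -0.51 ± 0.52 in Gli2/3 cKO (from -1.78 to 0.76; adjusted p = 1). Without WT 4 the value for Hand2 cKO was -0.054 (adjusted p = 0.987, with 0.563 to 0.987 under the other settings), and that for Gli2/3 cKO was -0.027 (adjusted p = 1, with 0.713 to 1 under the other settings), so the size of both differences rested on that library. Without WT 3 the value for Gli2/3 cKO was -0.90. Egr3 (chromosome 14, 70077203 to 70082614, plus strand) had 2 counts in each WT library, 2, 0 and 0 counts in Hand2 cKO 1 to 3 and 1 count in Gli2/3 cKO. All were below the floor of 3 counts taken here for a count of 0 (0.0567 to 0.133 CPM by library). That floor is a one-sided limit that is lower than the upper end of a two-sided Poisson interval. Each genotype had some counts of Egr3, but too few to compare its level between genotypes.

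Klf2 (chromosome 8, 72319033 to 72321656, plus strand), a Krüppel-like factor best known as the flow-induced regulator of endothelium, had 3.74 and 3.32 CPM in WT, 4.58, 4.80 and 4.24 CPM in the Hand2 cKO libraries and 3.25 CPM in the Gli2/3 cKO library. All 3 Hand2 cKO libraries lay above both WT libraries, and the Gli2/3 cKO library lay just below WT 4. The means were 4.54 ± 0.285 CPM in Hand2 cKO (SD, n = 3) and 3.53 ± 0.300 CPM in WT (SD, n = 2), a ratio of 1.29. Its log2 fold change was 0.36 ± 0.21 in Hand2 cKO (95% interval from -0.16 to 0.88; edgeR, adjusted p = 0.723, with 0.514 to 0.953 under the other settings) and -0.12 ± 0.29 in Gli2/3 cKO (from -0.83 to 0.59; adjusted p = 1). Neither passed the threshold. The separation from WT held with the trend on transcript length removed (4.63, 4.49 and 4.35 CPM in Hand2 cKO 1 to 3 against 3.86 and 3.25 CPM in WT). It also held in CPM of the total counts (4.54, 4.27 and 4.28 CPM against 3.88 and 3.50 CPM). In TPM it was lost, since Hand2 cKO 2 had 3.62 TPM, between the 3.52 and 4.31 TPM of the WT libraries. Hand2 cKO 1 and 3 had 4.76 and 4.64 TPM. The Gli2/3 cKO library was not the lowest in TPM (3.55 TPM) or with the trend on transcript length removed (3.31 CPM, against 3.25 CPM in WT 4). The 12 endothelial markers summed to 307 to 314 CPM in Hand2 cKO, 314 and 365 CPM in WT and in the Gli2/3 cKO library to 304 CPM. Their part in the level of Klf2 was not tested.

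Ier2 (chromosome 8, 84661331 to 84662852, minus strand), a short single-exon gene whose nuclear product is induced with Fos and Jun, was the most abundant of the 10. It had 66.6 and 62.2 CPM in WT 3 and WT 4, 86.6, 149 and 83.7 CPM in Hand2 cKO 1 to 3, and 72.0 CPM in Gli2/3 cKO 3. Every Hand2 cKO library was above both WT libraries and above the Gli2/3 cKO library, and Hand2 cKO 2 stood well above the other two, with a Poisson 95% interval from 145 to 153 CPM. The means were 106 ± 36.6 CPM in Hand2 cKO (SD, n = 3) and 64.4 ± 3.15 CPM in WT (SD, n = 2), a ratio of 1.65.

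The log2 fold change of Ier2 was 0.72 ± 0.29 in Hand2 cKO (95% interval from 0.022 to 1.42), which missed the threshold (edgeR, adjusted p = 0.723, with 0.355 to 0.953 under the other settings). Higher levels at an unadjusted p below 0.05 were found for 2.44% of all genes tested and for 1 of these 9, Ier2, whereas lower levels were found for 4.02% of all genes and for none of the 9. Without Hand2 cKO 2 the ratio of means was 132% of WT and the log2 fold change 0.39 ± 0.090 (from 0.17 to 0.61; adjusted p = 0.355). With DESeq2 it was 0.73 (adjusted p = 0.505). In Gli2/3 cKO it was 0.16 ± 0.38 against WT (from -0.76 to 1.08; adjusted p = 1), and no gene of the 9 was higher there at an unadjusted p below 0.05, against 1.63% of all genes. Against Hand2 cKO, none of the 9 was higher in Gli2/3 cKO either, against 2.86%, and the value for Ier2 was -0.56 (from -1.46 to 0.34; adjusted p = 0.906).

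Dusp1 (chromosome 17, 26505590 to 26562128, minus strand) encodes the phosphatase that shuts off p38, JNK and ERK and so ends the signal that induced it. Its level was 11.5 and 13.0 CPM in WT, 12.3, 14.4 and 11.8 CPM in the Hand2 cKO libraries and 12.4 CPM in the Gli2/3 cKO library. Hand2 cKO 2 was the highest and WT 3 the lowest library, at a ratio of 1.25, and the groups overlapped. Its fitted log2 fold change was 0.070 ± 0.18 in Hand2 cKO (95% interval from -0.37 to 0.51; edgeR, adjusted p = 0.905) and 0.018 ± 0.24 in Gli2/3 cKO (from -0.57 to 0.61; adjusted p = 1). The coding transcript held 90.1% of its counts, and transcripts annotated with a retained intron held 5.86% and 4.04%.

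**Figure D2:**
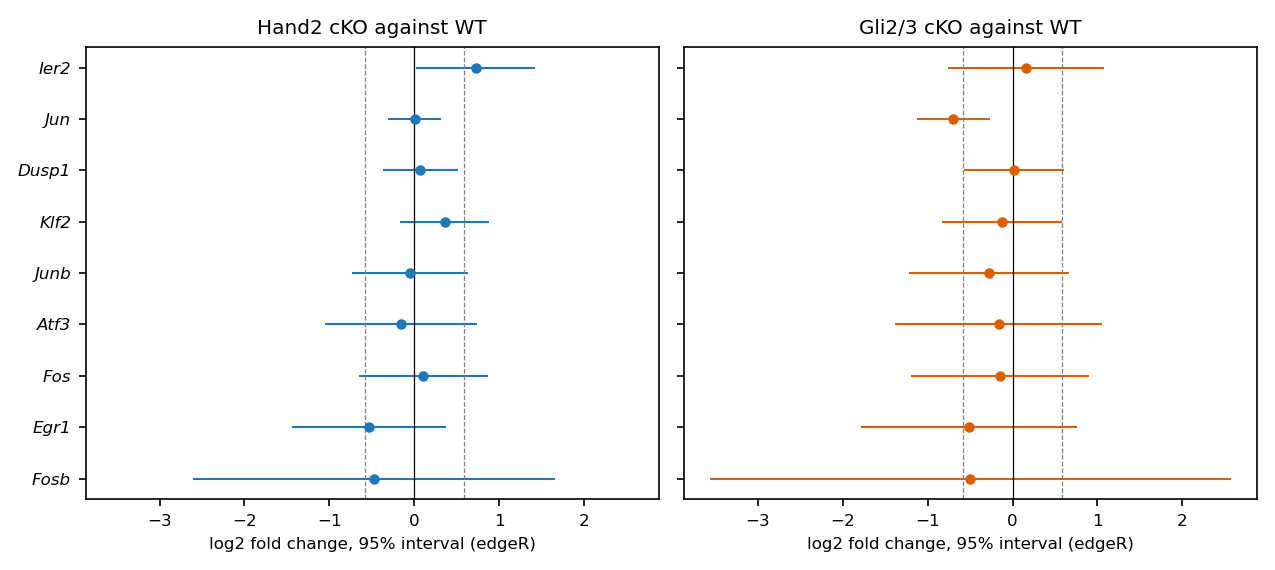
Log2 fold changes against WT of the 9 genes tested, with 95% intervals from the edgeR fit on all 6 libraries, for Hand2 cKO on the left and for the lone Gli2/3 cKO library on the right. Dashed lines mark a fold of 1.5 in either direction. The interval of Ier2 in Hand2 cKO (0.022 to 1.42) and that of Jun in Gli2/3 cKO (-1.13 to -0.26) leave out 0, and neither gene passed the threshold after adjustment.

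Considered together, 2 of the 9 tested genes (Ier2 and Klf2) had all 3 Hand2 cKO libraries above both WT libraries, against 15.3% of all genes tested, and none had all 3 below, against 15.7%. Without Hand2 cKO 2, Ier2 and Klf2 still lay above both WT libraries (23.6% of all genes) and Egr1 lay below both (22.3% of all genes). In Hand2 cKO 5 of the 9 had a positive and 4 a negative log2 fold change, with a median of 0.0077 against -0.00012 over all genes. In Gli2/3 cKO 2 were positive and 7 negative, with a median of -0.17 against 0.0012 over all genes. Both sets of values share the same WT libraries. The summed level of the 10 genes was 128 CPM in each WT library, 150, 218 and 145 CPM in Hand2 cKO 1 to 3 and 119 CPM in Gli2/3 cKO, but Ier2 and Jun made up most of it. Without Ier2 and Jun the sums were 22.0 and 26.2 CPM in WT, 24.0, 28.1 and 22.4 CPM in the Hand2 cKO libraries and 22.4 CPM in the Gli2/3 cKO library, so the groups overlapped.

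Hand2 cKO 2 was the highest library for 6 of the 10 genes in CPM (Fos, Jun, Junb, Ier2, Dusp1 and Klf2), and WT 4 for the other 4 (Fosb, Egr1, Egr3 and Atf3). Over all genes tested, Hand2 cKO 2 was highest for 32.1% and WT 4 for 18.8%. The place of Hand2 cKO 2 depended on the scale: it was highest for 3 genes once the trend on transcript length was removed (Jun, Ier2 and Dusp1), and for Ier2 alone in CPM of the total counts or in TPM. WT 4 was highest for 5, 7 and 6 genes on these scales. Ier2 was the gene for which Hand2 cKO 2 was highest on all 4 scales.

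The genes differed in how far Hand2 cKO 2 departed from the other Hand2 cKO libraries. The ratio to their mean in CPM was 1.74 for Ier2, 1.42 for Junb, 1.34 for Atf3, 1.26 for Egr1, 1.20 for Dusp1, 1.09 for Klf2, 1.08 for Fos, 1.05 for Jun and 0.804 for Fosb, with a median of 0.977 over all genes tested. Ier2 is also among the shorter transcripts, with 1522 nt against a median of 2688 nt. Among the 1215 tested genes within 10% of its length, the median ratio was 1.38 and 11.4% had a ratio at or above that of Ier2. Jun, at 3189 nt, had 2165 genes of similar length, with a median ratio of 0.956. Across length bins the median log2 ratio of all genes went from 0.61 at 642 nt to -0.73 at 7123 nt.

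**Figure D3:**
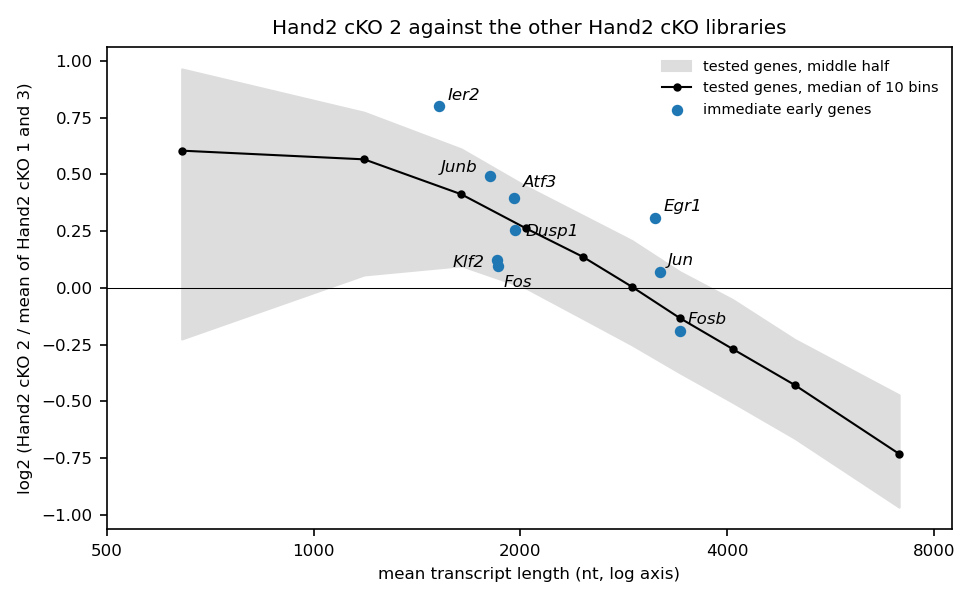
Log2 ratio of Hand2 cKO 2 to the mean of Hand2 cKO 1 and 3 (in CPM, with 0.1 CPM added) against mean transcript length in nt on a log axis. The black line joins the medians of 10 bins of tested genes and the gray band runs from their lower to their upper quartile. Ier2 (0.80) and Egr1 (0.31) lie above the band, and the median of the bins goes from 0.61 for the shortest to -0.73 for the longest transcripts.

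On every scale Hand2 cKO 1 and 3 had more Ier2 than either WT library, with 109 and 111 TPM against 93.1 and 80.2 TPM, and Hand2 cKO 2 had the most at 136 TPM. In TPM, Hand2 cKO 2 was 1.23 times the mean of the other Hand2 cKO libraries for Ier2. With the trend on transcript length removed the log2 fold change of Ier2 was 0.66 (edgeR, adjusted p = 0.425, with 0.355 to 0.953 under the other settings), and with total-count scaling 0.58. Jun was lowest in the Gli2/3 cKO library on all 4 scales, at 15.5 TPM. Hand2 cKO 2 was next lowest in TPM, at 18.0 TPM against 23.8 to 26.2 TPM in the remaining libraries, and in CPM of the total counts (36.6 CPM). It had the most Jun in CPM after TMM scaling (41.2 CPM) and with the trend on transcript length removed (43.7 CPM).

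**Figure D4:**
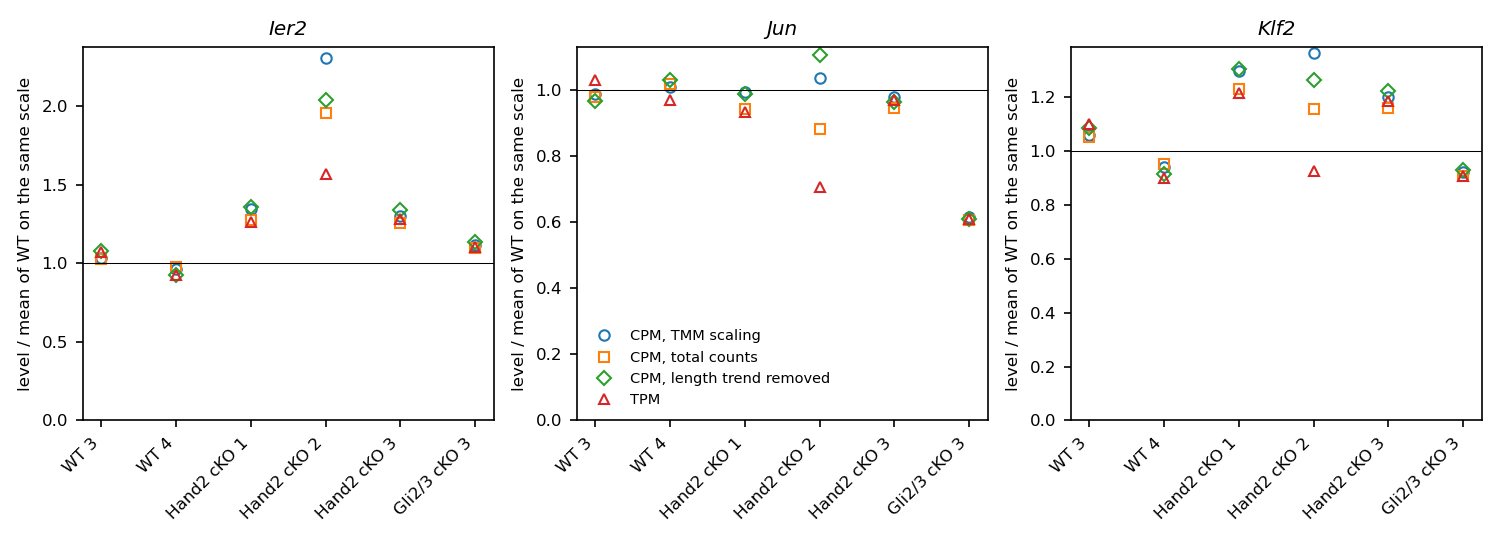
Levels of Ier2, Jun and Klf2 in each library, divided by the WT mean on the same scale, for CPM after TMM scaling (circles), CPM of the total counts (squares), CPM with the trend on transcript length removed (diamonds) and TPM (triangles), on linear axes from 0. Ier2 is highest in Hand2 cKO 2 and Jun lowest in Gli2/3 cKO 3 on every scale, whereas the value of Klf2 in Hand2 cKO 2 lies above both WT libraries in CPM and between them in TPM.

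The wider class of 45 other immediate early genes, such as further Jun, Egr, Nr4a, Klf and Dusp genes, showed no call either. Of the 42 tested (Egr2, Egr4 and Npas4 were not), 3 were higher and 2 lower in Hand2 cKO at an unadjusted p below 0.05, with a median log2 fold change of 0.043, against 2.44% higher and 4.02% lower of all genes tested. The numbers in Gli2/3 cKO were 0 higher and 1 lower, with a median of -0.12, against 1.63% and 2.96% of all genes. All 3 Hand2 cKO libraries lay above both WT libraries for 7 of them and below for 6, against 15.3% and 15.7% of all genes. Without Hand2 cKO 2 the numbers were 11 and 13, against 23.6% and 22.3%.

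The 4 with the smallest p in Hand2 cKO differed from WT in both directions, with none past the threshold (edgeR, adjusted p = 0.723 for each). Gadd45g, a stress-response gene, had 8.46 and 16.1 CPM in WT against 4.09, 7.58 and 3.76 CPM in Hand2 cKO, and its log2 fold change was -1.26 ± 0.41. Its relative Gadd45b had 3.57 and 3.67 CPM in WT against 1.80, 2.69 and 1.93 CPM in Hand2 cKO (-0.76 ± 0.28). For both genes each Hand2 cKO library was below each WT library. Ctgf, a matrix-associated protein and target of YAP signaling, had 28.3 and 13.9 CPM in WT against 34.4, 51.0 and 37.6 CPM in Hand2 cKO (0.95 ± 0.34). Myc, a growth-promoting transcription factor, had 24.8 and 32.5 CPM in WT against 33.3, 52.0 and 43.0 CPM in Hand2 cKO (0.58 ± 0.24). For Ctgf and Myc each Hand2 cKO library was above each WT library.

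Of 20 upstream factors and kinases, 1 (Rps6ka3, a kinase of the MAP kinase pathway, log2 fold change -0.70) was lower in Hand2 cKO at an unadjusted p below 0.05, and Elk1, a partner of SRF, had -0.47. Their median log2 fold changes were -0.010 in Hand2 cKO and -0.081 in Gli2/3 cKO, and none was called. Lists of other stress responses had no called gene either. For comparison with the counts given here, 2.44% of all genes tested were higher and 4.02% lower in Hand2 cKO at that unadjusted p. In Gli2/3 cKO these shares were 1.63% and 2.96%. Heat shock genes (14 tested) had 1 higher gene at an unadjusted p below 0.05 in Hand2 cKO (Hspd1, 0.54; Hsp90aa1 had 0.40) and a median of 0.12, against -0.069 in Gli2/3 cKO. For the 13 integrated stress genes the numbers were 1 higher in Hand2 cKO (Psat1, 0.41; Phgdh had 0.81) and 2 higher in Gli2/3 cKO, with medians of 0.25 and 0.089. The 13 hypoxia genes had 1 higher (Bnip3, 0.41) and 1 lower (Egln3, -0.72) in Hand2 cKO and 1 higher in Gli2/3 cKO, with medians of 0.13 and 0.060. The summed levels of the heat shock and integrated stress lists were highest in Hand2 cKO 2, at 11775 and 2266 CPM, against 8687 to 9924 and 1361 to 1623 CPM in the other libraries. Their part in the level of Ier2 was not tested.

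Markers of other tissues in the MNP were set beside these levels. Every marker in the 6 lists was above 0 counts in some library, and edgeR called none. Summed levels ran from 283 to 339 CPM for epithelium (8 markers), from 1799 to 2040 CPM for neural crest mesenchyme (10), from 20.3 to 24.6 CPM for neural genes (8) and from 17.6 to 31.6 CPM for macrophages (8), the last lowest in Gli2/3 cKO. Erythroid genes (8) spanned the widest range, with 2618 and 10003 CPM in WT 3 and WT 4, 3847, 8053 and 3664 CPM in the Hand2 cKO libraries and 3436 CPM in the Gli2/3 cKO library. WT 4 and Hand2 cKO 2, where erythroid genes were highest, were also the libraries in which every one of the 10 immediate early genes was highest in CPM. Of all genes tested, 32.1% were highest in Hand2 cKO 2 and 18.8% in WT 4. On the other scales Fos was highest in WT 3 and Klf2 in Hand2 cKO 1. The part of blood in those levels was not tested.

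At an unadjusted p below 0.05, no marker of endothelium, blood, macrophages or epithelium passed in Hand2 cKO. Of the mesenchyme markers 1 was lower there (Alx4, log2 fold change -1.38 ± 0.22; edgeR, adjusted p = 0.233, called by DESeq2), and of the neural genes 2 were higher (Otx2, 1.40, and Sox2, 0.52). Of the 7 neural genes tested 3 had a positive and 4 a negative log2 fold change in Hand2 cKO, from -1.10 to 2.41 with a median of -0.12. In Gli2/3 cKO 2 macrophage genes were lower, C1qa among them (-2.07), and 1 neural gene was higher. Over all genes tested, 2.44% were higher and 4.02% lower at that p in Hand2 cKO, and 1.63% and 2.96% in Gli2/3 cKO. The other 2 markers of lowest p per list had log2 fold changes in Hand2 cKO of -0.23 (Pecam1) and 0.51 (Cldn5) for endothelium, -2.21 (Hba-a2) and -1.09 (Alas2) for blood, -0.38 (C1qa) and 0.30 (Ptprc) for macrophages, 0.39 (Epcam) and -0.21 (Cdh1) for epithelium and 0.50 (Twist1) for mesenchyme. The erythroid genes had 3 positive and 5 negative values, with a median of -0.39, and the negative values of Hba-a2 and Alas2 rested on WT 4. Hba-a2 had 155 and 2822 CPM in WT 3 and WT 4 against 228 to 508 CPM in Hand2 cKO, and Alas2 had 21.4 and 122 CPM against 30.1 to 38.5 CPM, so each Hand2 cKO library lay above WT 3 and below WT 4.

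Genes whose pattern over the 6 libraries was most like that of the 10 were listed from 1125 genes with a mean log2 CPM of at least 1 and an SD of at least 0.5. Closest to Fos were Ttll11 (Pearson r 0.996), Osr2 (0.946), Mettl23 (0.941) and the gene models Gm10240 and Gm13370, whose values were identical (0.933 each). The values of Fos all lay within each other's counting intervals, so its pattern over the libraries, and with it this ranking, is not resolved. Closest to the mean of the 9 tested genes were Gm10221 (r 0.999), the metallothionein genes Mt1 (0.987) and Mt2 (0.986), Arl5c (0.978) and Nenf (0.977). Mt1 had 14.1 and 37.1 CPM in WT 3 and WT 4, 21.4, 55.9 and 20.1 CPM in Hand2 cKO 1 to 3 and 12.6 CPM in Gli2/3 cKO 3. Mt2 had 15.5 and 32.5, then 24.0, 54.9 and 21.2, then 14.2 CPM. Both were highest in Hand2 cKO 2 and next highest in WT 4. Closest to Ier2, a reference chosen after its values were seen, were Gm43110 (r 0.997), the ribosomal protein genes Rpl22l1 (0.991) and Rpl35a (0.988), the ribosomal pseudogene Rps12-ps3 (0.988) and Psenen, a subunit of gamma-secretase (0.990). Rpl22l1 had 280 CPM in Hand2 cKO 2 against 96.9 to 142 CPM in the other libraries. Pseudogenes took 2.85% of the counts in Hand2 cKO 2 against 1.73% to 1.97% in the others, and their part in the level of Ier2 was not tested. These correlations rest on 6 libraries that differ in depth and length bias, and are a description only.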

How the data were processed

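Bulk polyA RNA-seq of mouse MNPs was grouped by the genotype and replicate number in the labels. Of 10 samples 6 were used, and 4 were not analysed here. Per the study's methods, reads were mapped to mm10 and quantified in Strand NGS, with DESeq2 for the tests. Its version and gene annotation are not stated in the labels or methods, which differ on the sequencer. The authors deposited expected counts (estimated read counts) for 105129 transcripts, 47.7% to 56.8% of them more than 0.01 from a whole number in each library.

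Estimated counts were summed per gene symbol and rounded, since the planned test needed whole counts. The symbols of interest and all gene lists were chosen with earlier results of these data known. Coordinates are from GENCODE M21, to which 103635 transcripts matched without their version. After TMM scaling (trimmed mean of M values), the 17477 genes passing filterByExpr were tested with edgeR 4.0.16 (R 4.3.3) in 1 quasi-likelihood fit of all 6 libraries on genotype alone, with 3 residual degrees of freedom. The lone Gli2/3 cKO library adds none, so its comparisons assume that it varies like the other groups. CPM used the scaled library sizes, and TPM the annotated transcript lengths. TPM divides a transcript by the same length in every library, so it does not remove a library's trend on transcript length. Count intervals are exact Poisson intervals at 95% and cover counting error only. Depth ran from 21420197 to 53326697 counts. Pairs of libraries of a group differed by a chi-square of 24.1 to 225 per degree of freedom over genes, so none was a duplicate. Named genes were the 10 genes, the 4 other immediate early genes and the 2 genes of every other list with the smallest p in Hand2 cKO against WT, the 5 genes most like Fos and most like the mean of the 9 tested genes, and the targeted genes. Alternatives were DESeq2 1.42.0, no filter, other scalings, removal of the length trend, leaving out each library, and fits of only the groups compared. The method was tested on simulated data. Python 3.11.15 and scipy 1.17.1 were used for summaries.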

Additional observations from a re-analysis of the deposited data

Results flagged for a closer look

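Klf2 met a rule on opposite differences in the mutants: all 3 Hand2 cKO libraries (4.24 to 4.80 CPM) lay above both WT libraries (3.32 and 3.74 CPM), while the Gli2/3 cKO library (3.25 CPM) lay below both. Of all genes tested, 15.3% had all 3 Hand2 cKO libraries above both WT libraries, and 16.8% were lowest in the Gli2/3 cKO library. The share of genes with both was not computed. The pattern of Klf2 depended on the scale. With the trend on transcript length removed the Gli2/3 cKO library (3.31 CPM) lay between the WT libraries (3.25 and 3.86 CPM). The Hand2 cKO libraries (4.35 to 4.63 CPM) stayed above both WT libraries on that scale. In TPM both the Gli2/3 cKO library (3.55) and Hand2 cKO 2 (3.62) lay between the WT libraries (3.52 and 4.31). The difference between the mutants was tested as the contrast of Gli2/3 cKO with Hand2 cKO. The log2 fold change was -0.481 ± 0.28 (SE; 95% interval from -1.16 to 0.20) and missed the threshold (edgeR, adjusted p = 0.906, with 0.716 to 1 under the other settings). It was negative under all 11 alternatives run for that contrast. Because the rule picked Klf2 by this difference and the alternatives reuse the same libraries, the shared sign is not added support. No group had 4 libraries, so outlying libraries could not be tested.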

How the results depend on the processing

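The count of 0 called immediate early genes was obtained in all 3 comparisons under every alternative run. The number of all genes called moved more. In Hand2 cKO against WT it was 2, and 181 with DESeq2, 45 with no filter, 50 with the length trend removed, 1 with upper-quartile and 1 with total-count scaling, and 1 to 39 when single libraries were left out. In Gli2/3 cKO against WT it was 2, and 123 with DESeq2, 21 with no filter, 10 with the length trend removed, 57 with only the 2 groups in the fit and 0 to 14 without single libraries. In Gli2/3 cKO against Hand2 cKO it was 6, and 136, 39, 35 and 20 in the same order, with 2 to 23 without single libraries. The 3 counts were 39, 14 and 23 without Hand2 cKO 2, 22, 12 and 20 without WT 3, 1, 0 and 18 without WT 4, 1, 1 and 2 without Hand2 cKO 1, and 25, 9 and 4 without Hand2 cKO 3. Fits without a library also had fewer libraries, and the cause of these shifts was not tested.

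Of 203 log2 fold changes of single immediate early genes against WT under the alternatives, 184 kept their direction and side of the threshold and 19, spread over 8 of 18 results, changed sign, none of them a call. For Hand2 cKO against WT, total-count scaling gave -0.011 for Fos, -0.114 for Jun and -0.0571 for Dusp1, but it moved the median of all genes to -0.12, so all 3 lay at or above that median. Jun was at -0.0321 with upper-quartile scaling and at -0.000465 with only the 2 groups. Leaving out single libraries gave -0.011 to 0.258 for Fos, -0.029 to 0.0245 for Jun, -0.251 to 0.155 for Junb, -0.514 to 0.273 for Atf3 and -0.0329 to 0.159 for Dusp1. For Gli2/3 cKO against WT it gave -0.267 to 0.00366 for Fos, -0.522 to 0.264 for Atf3 and -0.0676 to 0.106 for Dusp1, which was at -0.00796 with total-count scaling. Without Hand2 cKO 2, chosen after seeing the data, 2 genes still had every Hand2 cKO library above WT, and the number with every library below was 0 to 1. Ier2 and Klf2 stayed positive in Hand2 cKO under all 12 alternatives, and Jun negative in Gli2/3 cKO under all 11.

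No paired analysis was possible because the groups analysed share fewer than 2 replicate numbers. Precision is limited by 3 residual degrees of freedom and, for Fosb and Egr3, by counts of at most 11 per library. The lone Gli2/3 cKO library has no replicate check.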
